A study of Arabidopsis thaliana with 28 samples.

Results

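BZIP60 and AT1G56300 are 2 Arabidopsis genes linked to protein folding, each read by 1 probe set of the ATH1 array. The platform annotation used here gives 13286 genes a probe set of their own. It leaves 8730 probe sets with no gene, so a gene without a probe set here may still be on the array. BZIP60 (AT1G42990) and AT1G56300 both lie on chromosome 1. They were chosen by their measured changes in shoots: BZIP60 for its higher signal at 0.5 h than at 0.25 h after drying, and AT1G56300 for its higher signal at 6 h. For that reason their shoot values and the root minus shoot differences are given as descriptions without a test, and the tests are those in roots.

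Every array held RNA of Arabidopsis thaliana Col-0 plants that had been dried. Per the labels, plants grown on Murashige and Skoog medium under 16 h days were stressed at day 16, when the light had been on for 3 h. A stream of dry air was applied for 15 min, until 10% of the fresh weight was gone, and the plants were then held in closed vessels. Roots and shoots were taken at 0.25, 0.5, 1, 3, 6, 12 and 24 h, which gives 14 groups of 2 arrays. There was no undried control among the 28 arrays, so each later time was set against 0.25 h. Counted from the start of drying, the samples of 3, 6 and 12 h fell at 6, 9 and 15 h after lights on, and those of 24 h at 3 h, next to the 3.25 h of the 0.25 h samples. Time after drying and time of day therefore cannot be told apart at the times in between. Nothing in the labels tells whether replicates were grown as separate cultures, and the p-values cover the spread between these arrays alone, which may be technical.

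The endoplasmic reticulum (ER) folds secreted and membrane proteins, and plants answer a load of misfolded protein there with the unfolded protein response. In this response the ER sensor kinase IRE1 cuts and rejoins the messenger of BZIP60, which otherwise encodes a membrane-bound transcription factor, and the spliced form encodes a nuclear factor that switches on ER chaperone genes. A sister factor, BZIP28, is released from the membrane by proteases instead. AT1G56300 encodes a protein with a DnaJ (J) domain, the part by which co-chaperones of this kind stimulate Hsp70 chaperones. The probe set signal of BZIP60 is 1 number for the gene, and spliced and unspliced messenger were not separated here.

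The deposited values are array signals scaled to the same trimmed mean on every array. The median signal over all probe sets was 43.1 to 46.7 on root arrays and 36.6 to 40.3 on shoot arrays. Replicate arrays of 12 groups correlated at 0.976 to 0.985 over the log2 signals of the 18190 probe sets kept by the filter. The 4 shoot arrays of 0.5 h and 1 h stood apart: each correlated with its own replicate at 0.953 to 0.955 only, and best, at 0.982, with an array of the other time. Replicate 1 of 0.5 h matched replicate 2 of 1 h, and replicate 2 of 0.5 h matched replicate 1 of 1 h. Values of shoots at 0.5 h and 1 h are therefore those of the arrays so labelled. The tissue labels were checked by level. The photosynthesis genes LHCB4.1, RCA and PRK summed to 172 to 532 signal units on root arrays and to 13260 to 18647 on shoot arrays. The root genes PYK10, a β-glucosidase of ER bodies, and EXPA7, a root hair expansin, summed to 3080 to 4039 on root arrays and to 411 to 2032 on shoot arrays. This sum was nearly all PYK10, as EXPA7 had 23.7 to 57.6 on root arrays and 1.34 to 17.4 on shoot arrays. In the annotation 3 of 20 listed shoot markers and 2 of 18 listed root markers had a probe set of their own.

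BZIP60 had the higher signal in roots than in shoots at 5 of the 7 times, and its large differences over time lay in shoots. In shoots its signal on the 2 arrays was 90.9 and 91.8 at 0.25 h, 356.8 and 376.1 at 0.5 h, and 332.4 and 295.6 at 1 h. It then stood at 86.1 and 88.9 at 3 h, 116.5 and 93.2 at 6 h, 82.0 and 108.9 at 12 h, and 101.1 and 102.1 at 24 h. All 4 arrays of 0.5 h and 1 h lay above all 10 arrays of the other times, and those 10 lay within 82.0 to 116.5. The state of high BZIP60 signal was thus seen at 2 neighbouring times and at no other time sampled. In a bulk tissue sample a change in signal can come from the RNA per cell or from the number of cells of a type, and these cannot be told apart.

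The mean signal of BZIP60 in shoots was 4.01-fold higher at 0.5 h than at 0.25 h, and 3.44-fold higher at 1 h than at 0.25 h. On the log2 scale these differences were 1.98 and 1.76, each with a standard error (SE) of 0.14 from the fit (n = 2 arrays per group). At 3 h the mean was 87.5, against 91.3 at 0.25 h, and it was 3.59-fold lower than at 1 h. The log2 differences from 0.25 h at 3, 6, 12 and 24 h were -0.06, 0.19, 0.05 and 0.15, each within 1.5 SE of 0. Of all 18190 probe sets tested, 158 had a larger positive change than BZIP60 in shoots at 0.5 h and 198 at 1 h. The change at 0.5 h is the one by which BZIP60 was chosen. With the 4 arrays of 0.5 h and 1 h taken as 1 group, the log2 difference of BZIP60 from 0.25 h was 1.87. Along the cross match of these 4 arrays BZIP60 had 356.8 and 295.6 in 1 matched pair and 376.1 and 332.4 in the other, ranges that overlap and all lie above the other shoot arrays.

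In roots the signal of BZIP60 was lower at later times than at 0.25 h, by less than the early difference in shoots. Its signal was 240.9 and 250.7 at 0.25 h, 226.8 and 248.8 at 0.5 h, 196.3 and 209.6 at 1 h, and 170.5 and 208.5 at 3 h. It was 164.7 and 181.0 at 6 h, 179.5 and 163.5 at 12 h, and 202.9 and 171.7 at 24 h. From 1 h on, every root array lay below both arrays of 0.25 h. BZIP60 passed the test in roots at 6 h, where the log2 change from 0.25 h was -0.50 ± 0.14 (SE, limma adjusted p = 0.0230), and at 12 h, where it was -0.52 ± 0.14 (limma adjusted p = 0.0244). The mean was 1.42-fold lower at 6 h than at 0.25 h and 1.43-fold lower at 12 h. Of all probe sets tested, 5.01% fell in roots at 6 h and 4.26% fell at 12 h.

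At the other root times the change of BZIP60 did not pass. Its log2 change was -0.05 at 0.5 h (limma adjusted p = 0.902), -0.27 (0.268) and -0.38 (0.152) at 1 h and 3 h, and -0.39 (0.182) at 24 h. A test of any change over the 6 later root times gave F = 4.60 (limma adjusted p = 0.0245), and 27.6% of all probe sets passed that test. These calls lie near the threshold. Each of the calls at 6 h and 12 h was lost when any 1 of its 4 arrays was left out, with adjusted p of 0.0617 to 0.138 at 6 h and 0.0537 to 0.190 at 12 h. With the average of the 0.25 h and 24 h groups as reference, the log2 changes were -0.31 at 6 h (adjusted p = 0.0987) and -0.32 at 12 h (0.135), neither past the test. The F test did not pass without root replicate 1 of 0.25 h (adjusted p = 0.0584), root replicate 2 of 0.25 h (0.0715), replicate 2 of 0.5 h (0.0694) or replicate 2 of 12 h (0.0553).

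**Figure D1:**
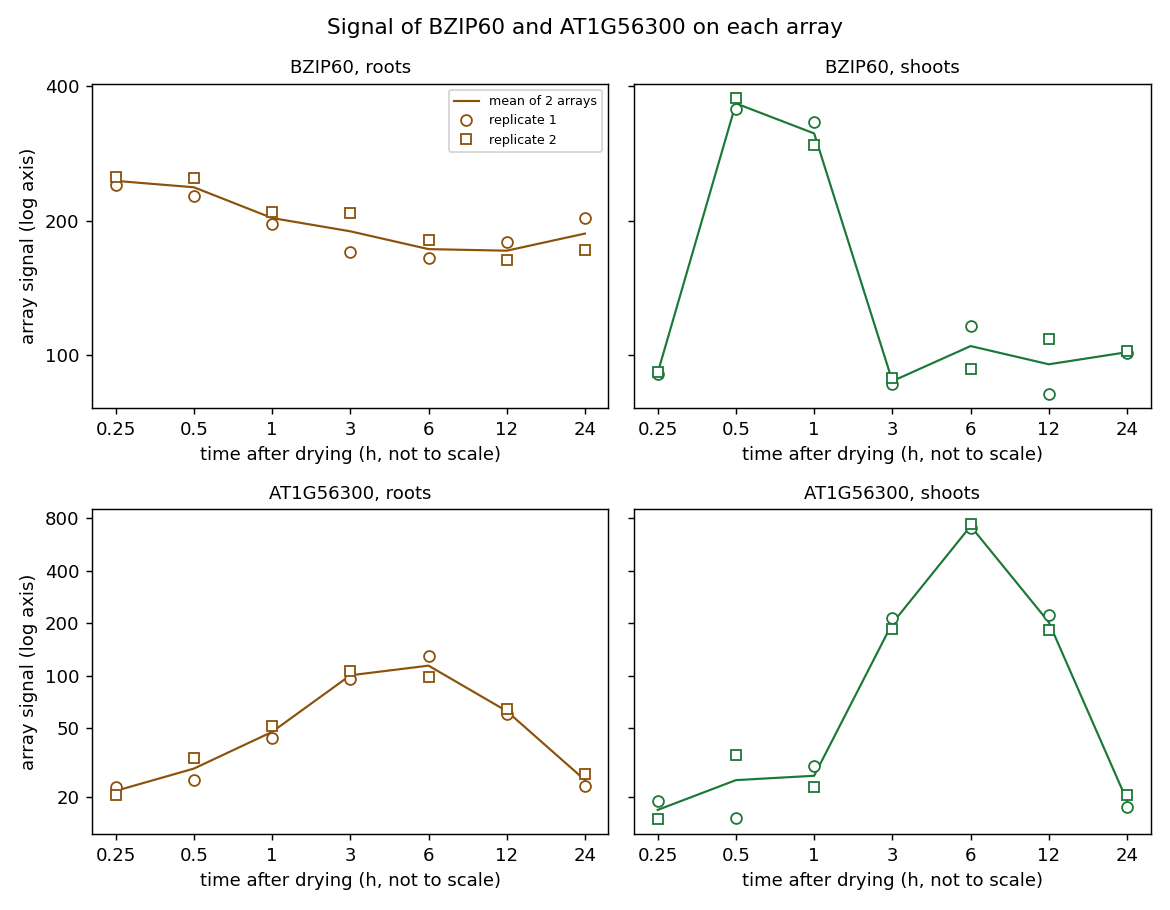
Array signal on a log axis of BZIP60 (top) and AT1G56300 (bottom) in roots (left) and shoots (right) at 7 times after drying; circles and squares are replicates 1 and 2, and lines join the means of 2 arrays. BZIP60 in shoots is at 296 to 376 on the arrays of 0.5 h and 1 h and at 82.0 to 116.5 on the rest, and AT1G56300 has its highest mean at 6 h in both tissues.

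The order of the tissues for BZIP60 changed with time. At 0.25 h the mean was 245.8 in roots and 91.3 in shoots, a root to shoot ratio of 2.69. At 0.5 h the mean was 237.8 in roots and 366.5 in shoots, and at 1 h 202.9 in roots and 314.0 in shoots, a ratio of 0.65 at both times. From 3 h to 24 h roots were again higher, with ratios of 2.17, 1.65, 1.80 and 1.84 at 3, 6, 12 and 24 h. At all 7 times the 2 root arrays and the 2 shoot arrays did not overlap. The log2 change in roots minus that in shoots was -2.03 at 0.5 h and -2.03 at 1 h (SE 0.19 each), and it lay between -0.69 and -0.32 at the later times.

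Ordered by level within shoots, BZIP60 was highest at 0.5 h, then at 1 h. As labelled these neighbours did not overlap, the lowest array of 0.5 h being at 356.8 and the highest of 1 h at 332.4. Each of these arrays correlated best with an array of the other time, and along that match the values overlap. The order of 0.5 h and 1 h thus holds for the labels only. The next in order, 6, 24, 12 and 0.25 h, overlapped each with its neighbour, and 3 h was last, its highest array at 88.9 against the lowest at 0.25 h of 90.9. Within roots the order was 0.25, 0.5, 1, 3, 24, 6 and 12 h. Of neighbours in that order only 0.5 h and 1 h had arrays that did not overlap.

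AT1G56300 was low just after drying, had its highest mean at 6 h and was low again at 24 h, in both tissues. In roots its signal was 23.0 and 20.5 at 0.25 h, 25.0 and 33.4 at 0.5 h, 43.6 and 51.2 at 1 h, and 95.1 and 105.4 at 3 h. It was 130.2 and 97.7 at 6 h, 60.3 and 64.6 at 12 h, and 23.1 and 27.1 at 24 h. All root arrays of 1, 3, 6 and 12 h lay above all those of 0.25, 0.5 and 24 h. Without detection calls, the values at 0.25 h and 24 h, which lay between the 34.8th and 40.0th percentile of their arrays, have no stated background.

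AT1G56300 rose in roots at 1, 3, 6 and 12 h by limma's test. The log2 change from 0.25 h was 1.06 ± 0.26 at 1 h (SE, limma adjusted p = 0.0182), 2.11 ± 0.26 at 3 h (5.7e-05), 2.28 ± 0.26 at 6 h (1.3e-05) and 1.44 ± 0.26 at 12 h (0.00134). Its mean signal was 4.61-fold higher at 3 h than at 0.25 h, 5.24-fold higher at 6 h and 2.87-fold higher at 12 h. These changes were among the larger ones in roots: 38 probe sets had a larger positive change at 3 h, 62 at 6 h and 126 at 12 h. Of all probe sets tested, 3.48% rose in roots at 1 h, 1.75% at 3 h, 5.32% at 6 h and 3.62% at 12 h. At 0.5 h the log2 change was 0.38 (limma adjusted p = 0.464) and at 24 h 0.19 (adjusted p = 0.887), neither past the test, where 2.13% and 0.5% of all probe sets rose. The F test over the 6 later root times gave 25.8 (limma adjusted p = 5.1e-06).

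The root calls of AT1G56300 at 3, 6 and 12 h held without any 1 of the 28 arrays. The call at 1 h was lost without root replicate 1 of 0.25 h (adjusted p = 0.0879), root replicate 2 of 0.25 h (0.0930) or root replicate 2 of 1 h (0.158). The 2 steps down were clear of the spread: the mean was 1.82-fold lower at 12 h than at 6 h and 2.49-fold lower at 24 h than at 12 h, with no overlap of arrays at either step. Between 6 h and 3 h the arrays overlapped, so no order of these 2 root times can be given.

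In shoots AT1G56300 was at 18.9 and 14.9 at 0.25 h, 15.1 and 35.0 at 0.5 h, 30.2 and 22.9 at 1 h, and 213.9 and 185.1 at 3 h. It was at 702.0 and 740.1 at 6 h, 221.2 and 183.4 at 12 h, and 17.6 and 20.6 at 24 h. The arrays of 3, 6 and 12 h all lay above those of the other 4 times, and those of 6 h above all others. In relative terms the mean was 11.8-fold higher at 3 h than at 0.25 h and 42.6-fold higher at 6 h, and at 12 h it was 202.3, against 16.9 at 0.25 h. On the scale of log2(signal + 1.93), which understates changes of dim probe sets, the differences from 0.25 h were 0.42, 0.59, 3.42, 5.27, 3.44 and 0.16 at 0.5, 1, 3, 6, 12 and 24 h (SE 0.26 each). At 6 h, the time by which the gene was chosen, 14 of all probe sets tested had a larger positive change.

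The early shoot values of AT1G56300 split along the cross match of the arrays. The pair of 0.5 h replicate 1 and 1 h replicate 2 had 15.1 and 22.9, and the pair of 0.5 h replicate 2 and 1 h replicate 1 had 35.0 and 30.2. A course of this gene in shoots before 3 h cannot be read from these arrays. The later shoot arrays matched their own replicates.

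**Figure D2:**
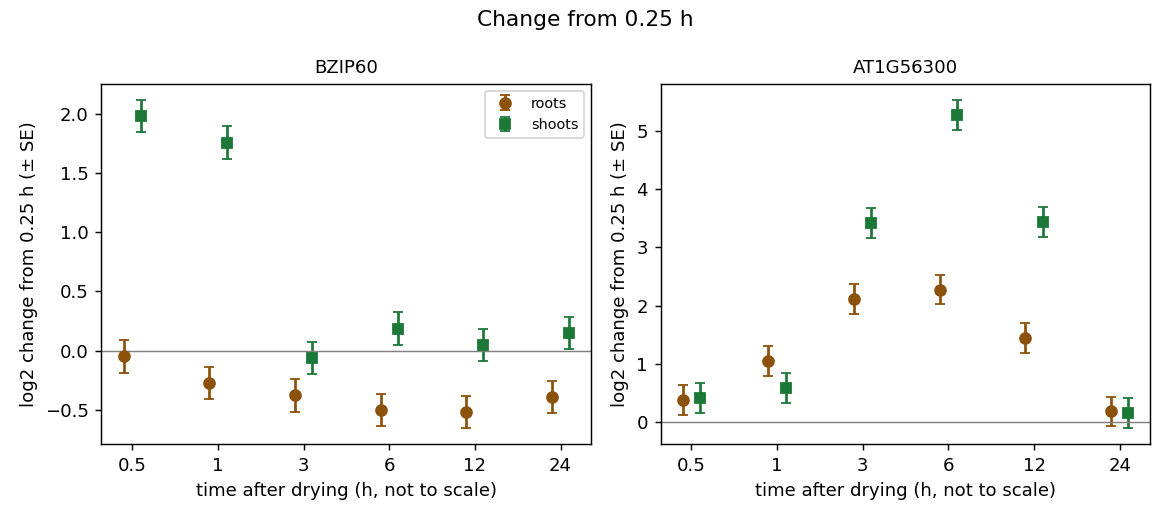
Log2 change from 0.25 h (± SE of the fit, 2 arrays per group) of BZIP60 (left) and AT1G56300 (right) at 6 later times, roots as circles and shoots as squares. BZIP60 is near 2 in shoots at 0.5 h and below 0 in roots, and AT1G56300 reaches 2.28 in roots and 5.27 in shoots at 6 h.

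AT1G56300 had its 3 highest means at 3, 6 and 12 h in both tissues, at a greater height in shoots. At 0.25 h the mean was 21.7 in roots and 16.9 in shoots. It was 100.3 in roots and 199.5 in shoots at 3 h, 113.9 in roots and 721.1 in shoots at 6 h, and 62.4 in roots and 202.3 in shoots at 12 h. The root to shoot ratio of the means was 0.50, 0.16 and 0.31 at these 3 times, with no overlap of arrays. At 24 h the mean was 25.1 in roots and 19.1 in shoots. The root change minus the shoot change was -1.31 at 3 h, -2.99 at 6 h and -2.00 at 12 h on the log2 scale (SE 0.36 each), and -0.04, 0.47 and 0.02 at 0.5, 1 and 24 h.

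Both genes had their largest shoot changes at times that did not coincide. This follows from their choice, by shoot signal at 0.5 h for BZIP60 and at 6 h for AT1G56300. At 0.5 h, when BZIP60 was 4.01-fold above its 0.25 h mean in shoots, AT1G56300 had arrays at 15.1 and 35.0, which overlap those of 0.25 h at 18.9 and 14.9, and leaving out 1 array moved its log2 change between -0.13 and 0.98. At 6 h, when AT1G56300 was 42.6-fold above, BZIP60 was 1.15-fold above. Across the 14 group means, with each tissue's mean taken off, the log2 signals of BZIP60 and AT1G56300 had a Pearson r of -0.45. It was -0.72 over the 7 root groups and -0.44 over the 7 shoot groups. The points share arrays and a time course, and r is given as a description. The r over shoot groups, and with it the pooled r, also follows in part from that choice.

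The marker genes of the other tissue moved as follows. LHCB4.1, RCA and PRK gave 0 calls in 18 root tests and 0 in 18 shoot tests by limma (1 and 0 at an unadjusted p under 0.05). Their log2 changes were -0.78 to 0.30 in roots and -0.38 to 0.15 in shoots. Of all probe sets tested, 0.5% to 5.32% were called each way in root contrasts and 2.85% to 17.7% in shoot contrasts. In shoots PYK10 rose at 3, 6 and 12 h, the times when AT1G56300 was high, by log2 changes of 1.25, 1.69 and 1.59. Of all probe sets 14.9%, 17.7% and 14.7% rose there. EXPA7 fell in shoots at 0.5 h and 12 h, by log2 changes of -1.42 and -1.56, where 2.85% and 11.7% of all probe sets fell. The sum of PYK10 and EXPA7 in shoots was nearly all PYK10, as EXPA7 was at most 17.4 there. That sum was 538 to 590 at 0.25 h and 411 to 1011 at 0.5 h. At 3, 6 and 12 h it was 1101 to 1591, 1628 to 1993 and 1363 to 2032. At 6 h in shoots AT1G56300 had 721.1 on average, and its highest root array had 130.2. BZIP60 at 0.5 h in shoots had 366.5, and its highest root array had 250.7. These are the shoot values by which the 2 genes were chosen. What part the change of the root genes had in the shoot values of BZIP60 and AT1G56300 was not tested.

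The list of unfolded protein response and ER folding genes named 51 genes besides BZIP60. In the annotation 14 of them had a probe set of their own, and all 14 passed the filter on low signals. No BiP gene, the main ER Hsp70, and neither IRE1 gene was among the 14. The annotation gives these no probe set of their own, which does not show that the array lacks them. In shoots at 0.5 h and 1 h, when BZIP60 was high, 1 and 2 of the 14 rose by limma and none fell, and 4 of the 14 had an unadjusted p under 0.05 at either time. The 1 at 0.5 h was BZIP28, and those at 1 h were BZIP28 and ATERDJ2B. The call of ATERDJ2B (log2 change 0.48) was lost in 20 of 28 fits without 1 array. Of all probe sets tested, 5.09% rose and 2.85% fell in shoots at 0.5 h, and 5.17% rose and 3.13% fell at 1 h, and no difference between the list and these shares was tested.

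The sensors come first. BZIP28 had 147.1 and 150.7 in shoots at 0.5 h and 165.9 and 152.0 at 1 h, against 80.6 and 106.4 at 0.25 h. The groups did not overlap. Its log2 change was 0.67 ± 0.13 at 0.5 h (SE, limma adjusted p = 0.00308) and 0.77 ± 0.13 at 1 h (adjusted p = 0.00115), so BZIP28 changed in the direction of BZIP60 at these times. Without shoot replicate 1 of 0.25 h the call at 0.5 h was lost (adjusted p = 0.0624). BZIP28 was also called at 6 h (log2 change 0.47) and 12 h (0.43), both lost without that same array or without replicate 2 of the later group, and passed at no root time. BZIP17, the close relative of BZIP28, and S1P, a protease of the same list, passed in no contrast. AT4G20310 fell in shoots at 3 h (log2 change -0.50) and at 12 h (-0.40), and these calls were lost without shoot replicate 1 of 0.25 h too. The call at 3 h was also lost without shoot replicate 2 of 3 h. That at 12 h was also lost without either shoot array of 12 h and with the shoot arrays alone.

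At 3 h in shoots, when BZIP60 stood at 86.1 and 88.9, 7 of the 14 rose and 1 fell. Of all probe sets tested, 14.9% rose and 13.9% fell there. The median log2 change of the 14 was 0.33, against -0.02 over all probe sets tested. Without shoot replicate 1 of 0.25 h, or without shoot replicate 2 of 3 h, 4 of the 14 were called. The calls that held without any 1 array were those of the lectin chaperone CRT1b, a calreticulin, of the J-domain co-chaperone ATERDJ3B, of OS9, a lectin of ER-associated degradation, and of AT5G07340. CRT1b had 590.3 and 557.1 at 3 h, against 363.1 and 402.5 at 0.25 h (log2 change 0.58 ± 0.13, limma adjusted p = 0.00249). ATERDJ3B had 436.2 and 392.1 at 3 h, against 242.9 and 268.6 at 0.25 h (log2 change 0.69 ± 0.13, limma adjusted p = 0.000467).

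OS9 had 120.4 and 121.8 in shoots at 3 h, against 71.5 and 83.2 at 0.25 h (log2 change 0.64 ± 0.15, limma adjusted p = 0.00271). AT5G07340 had 122.1 and 95.0 at 3 h, against 69.2 and 62.6 at 0.25 h (log2 change 0.69 ± 0.15, limma adjusted p = 0.00175). For all 4 of these genes the arrays of 3 h lay above those of 0.25 h. The other 3 that rose were DER2.1 (0.55) and DER1 (0.33), relatives of the yeast and mammalian derlins of ER-associated degradation, and ATERDJ2A (0.36), a J-domain protein of the ER membrane. Each of these 3 calls was lost without some single array.

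Later, fewer of the list were called in shoots. At 6 h 3 of the 14 rose (DER2.1, BZIP28 and ATERDJ2A) and none fell, where 17.7% of all probe sets rose and 15.8% fell. At 12 h 3 rose and 2 fell, where 14.7% rose and 11.7% fell: ATERDJ3B rose by 0.69, BZIP28 by 0.43 and ATERDJ2A by 0.39, and ATERDJ2B and AT4G20310 fell, with log2 changes of -0.46 and -0.40. At 24 h DER1 alone rose, by 0.34, where 5.39% rose and 5.63% fell, and the call was lost without shoot replicate 1 of 0.25 h or either array of 24 h. Without shoot replicate 1 of 0.25 h, 1 of the 14 was called at 6 h and 1 at 12 h, and without shoot replicate 2 of 6 h, 1 was called at 6 h.

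In roots, where BZIP60 fell at 6 h and 12 h, 3 calls were made over the 14 genes and 6 contrasts. DER1 fell at 1 h (log2 change -0.37), where 3.36% of all probe sets fell, and the call was lost without any 1 of its 4 arrays. ATERDJ3B rose at 6 h by 0.45, where 5.32% of all probe sets rose, and the call was lost without root replicate 2 of 0.25 h or of 6 h. UBC32, a ubiquitin-conjugating enzyme of ER-associated degradation, fell at 12 h (log2 change -0.66), with 86.8 and 95.2, against 135.1 and 155.7 at 0.25 h, and 4.26% of all probe sets fell there. At 0.5, 3 and 24 h none of the 14 passed by limma (2, 0 and 1 at an unadjusted p under 0.05), where 2.13%, 1.75% and 0.5% of all probe sets rose and 2.68%, 1.83% and 1.71% fell. The disulfide isomerase PDIL5-1 passed in no contrast of either tissue.

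**Figure D3:**
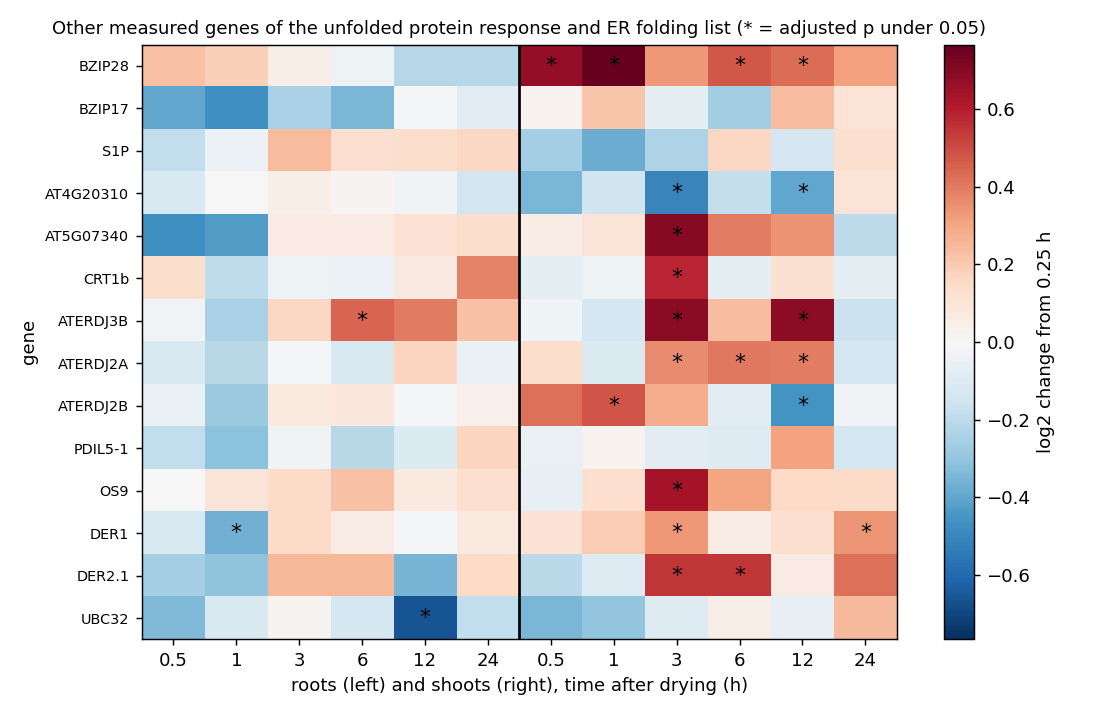
Log2 change from 0.25 h of the 14 measured genes of the unfolded protein response and ER folding list (rows) at 6 later times in roots (left) and shoots (right); red is higher and blue lower than 0.25 h, and a star marks an adjusted p under 0.05. Of the 14, 7 rose and 1 fell in shoots at 3 h, while 1 rose at 0.5 h and 2 at 1 h.

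Among the other genes named as bZIP factors, 21 of 48 had a probe set of their own in the annotation and 17 passed the filter. In roots AT2G21230 fell at 0.5 h (log2 change -0.52), where 2.68% of all probe sets fell, and bZIP58 fell at 12 h (-1.16), where 4.26% fell. Each call was lost without any 1 of its 4 arrays. In shoots BZIP28 rose at 0.5, 1, 6 and 12 h as above, and AT2G40620 rose at 3 h (0.64), where 14.9% of all probe sets rose. The call of AT2G40620 was lost without shoot replicate 2 of 0.25 h or of 3 h. BZIP34 and BZIP61 fell in shoots at 12 h (-1.62 and -1.64), where 11.7% of all probe sets fell. Both calls were lost without shoot replicate 2 of 0.25 h or of 12 h, that of BZIP61 also without replicate 1 of either time. In shoots at 0.5 h and 1 h, when BZIP60 was high, BZIP28 was the 1 gene called of the 17, where 5.09% and 5.17% of all probe sets rose, and 6 and 3 of the 17 had an unadjusted p under 0.05. The number called at 0.5 h and at 1 h changed when some single arrays were left out. At 0.5 h it was 3 with the average of the 0.25 h and 24 h groups as reference. The shares of all probe sets called under these settings are not given, so these counts are no result about the list.

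The J-domain genes named in the gene table, other than AT1G56300, were few. Of 9 entries 2 had a probe set of their own in the annotation. ATJ1 passed in no contrast, and its signal was 40.7 and 29.0 in shoots at 6 h, against 33.2 and 26.3 at 0.25 h. ATERDJ3B is described above: it rose in shoots at 3 h and 12 h. At 6 h in shoots, when AT1G56300 was highest, ATERDJ3B had 305.2 and 296.7 against 242.9 and 268.6 at 0.25 h (log2 change 0.23, limma adjusted p = 0.181). In roots at 6 h, when AT1G56300 also had its highest mean, ATERDJ3B rose (log2 change 0.45), where 5.32% of all probe sets rose. That call was lost without some single array. In roots at 12 h neither J-domain gene passed by limma, and both had an unadjusted p under 0.05, with a median log2 change of 0.46. Of 22 entries for the partner chaperone families HSP70, HSP90 and HSP100, Hsp70-2 alone had a probe set of its own in the annotation. Hsp70-2 fell in shoots at 6 h, with 52.0 and 42.0 against 119.0 and 88.0 at 0.25 h (log2 change -1.10 ± 0.25, limma adjusted p = 0.00190). There 15.8% of all probe sets fell. No other contrast of Hsp70-2 passed.

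Since time of day moves with time after drying, genes of the circadian clock were set beside AT1G56300. Of 16 genes listed, 3 had a probe set of their own in the annotation. They were GI, an evening-phased clock gene, COR27, a cold-regulated gene that represses clock genes, and AT4G33980. GI had 200.3 and 173.4 in shoots at 3 h and 503.3 and 530.1 at 6 h, against 48.3 and 41.6 at 0.25 h. The log2 change of GI was 2.01 ± 0.27 at 3 h (limma adjusted p = 2.0e-05) and 3.47 ± 0.27 at 6 h (1.4e-08), so GI and AT1G56300 were both high in shoots at 3 h and 6 h. At 12 h GI was back at 57.4 and 38.8, when AT1G56300 was at 221.2 and 183.4.

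COR27 and AT4G33980 were high in shoots later than GI. COR27 was at most 3.44 on the shoot arrays up to 3 h and had 162.0 and 154.4 at 6 h and 94.3 and 85.1 at 12 h. AT4G33980 had 192.7 and 161.2 at 6 h and 72.8 and 60.9 at 12 h, and at most 4.44 on the arrays up to 3 h. Both passed at 6 h and 12 h, and neither did at 3 h, when AT1G56300 was 11.8-fold above its 0.25 h mean. At 24 h, near the clock time of 0.25 h, GI, COR27 and AT4G33980 did not pass in either tissue, though AT4G33980 had 6.20 and 3.89 in roots, against 12.4 and 14.3 at 0.25 h (log2 change -1.15, limma adjusted p = 0.303). At 24 h AT1G56300 differed from 0.25 h by 0.19 in roots and 0.16 in shoots on the log2 scale.

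In roots COR27 rose at 1, 3, 6 and 12 h, with log2 changes of 1.29, 2.01, 4.04 and 2.47, and AT1G56300 rose at 1, 3, 6 and 12 h as well. COR27 was dim at 0.25 h, so the size of its change depended on the pseudocount and was 2.07 to 5.51 in roots at 6 h across the alternatives. The 1 h call of COR27 was lost without any 1 of its 4 arrays and under both other pseudocounts. AT4G33980 rose at 3 h (2.51) and 6 h (2.32), and neither call held without a pseudocount, nor that of 3 h without root replicate 1 of 0.25 h or replicate 2 of 3 h. GI in roots did not pass at 3 h or 6 h, with log2 changes of 0.78 and 0.59, and fell at 12 h (-1.12), a call lost without any 1 of its 4 arrays. In shoots at 0.5 h and 1 h GI was called too, but its values split along the cross match, with 63.7 and 61.7 in 1 pair and 120.4 and 136.6 in the other, and both calls were lost under quantile normalization and with the shoot arrays alone. Time of day and time after drying cannot be told apart here, and their parts in the course of AT1G56300 were not tested.

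**Figure D4:**
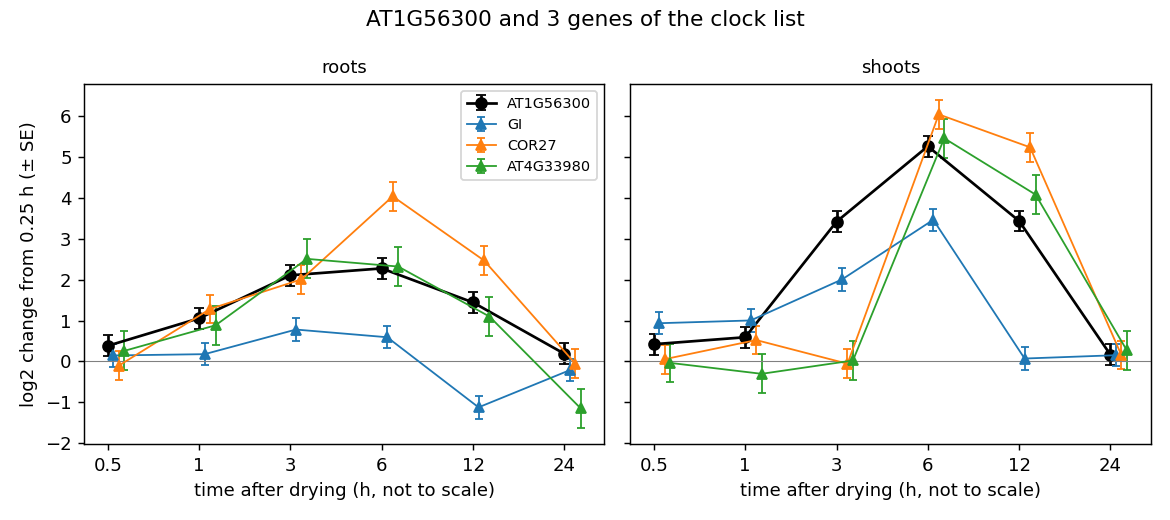
Log2 change from 0.25 h (± SE of the fit, 2 arrays per group) of AT1G56300 (black) and the 3 measured clock genes GI, COR27 and AT4G33980 in roots (left) and shoots (right). In shoots AT1G56300 is at 3.42 at 3 h, when GI is at 2.01 and the other 2 are near 0, and at 3.44 at 12 h, when GI is near 0.

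The genes with the courses most like those of BZIP60 and AT1G56300 were ranked by Pearson r over the 14 group means of log2 signal, with each tissue's mean taken off, among 9978 genes. The groups share arrays and the choice is the top of a ranking, so r is a description. For BZIP60 they were AT4G37290 (r = 0.96), AT5G48655 (0.96), AT5G42050 (0.95), PUB19 (0.94) and AT2G46940 (0.93). PUB19 is a U-box ubiquitin ligase, and the other 4 have no symbol in the tables used. All 5 had their 2 highest shoot means at 0.5 h and 1 h.

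The likeness to BZIP60 was closer in shoots than in roots. This follows in part from the ranking, which pooled both tissues while the large differences of BZIP60 lay in shoots. Over the 7 shoot groups r was 0.96 to 0.99 for the 5 genes, and over the 7 root groups it was 0.29 for AT4G37290, 0.55 for AT2G46940, 0.69 for AT5G42050, 0.76 for AT5G48655 and 0.83 for PUB19. PUB19 had 774.2 and 444.0 in shoots at 0.5 h and 617.4 and 746.4 at 1 h, against 32.4 and 32.4 at 0.25 h. In roots PUB19 had 118.3 and 118.3 at 0.5 h and 14.2 and 19.2 at 12 h, against 79.2 and 61.4 at 0.25 h. BZIP60 in roots had no such higher value at 0.5 h, with 226.8 and 248.8 against 240.9 and 250.7. AT5G48655 had 358.0 and 404.5 in shoots at 0.5 h and 482.7 and 315.1 at 1 h, against 170.2 and 158.5 at 0.25 h.

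For AT1G56300 the most alike were AT4G14230 (r = 0.98), AT3G47160 (0.98), ALDH6B2 (0.98), ALDH10A9 (0.97) and AT4G30650 (0.96). Within each tissue r was 0.98 to 0.99 over the 7 shoot groups and 0.88 to 0.97 over the 7 root groups. High values in each tissue follow in part from the ranking, which used these same groups. ALDH6B2 encodes methylmalonate semialdehyde dehydrogenase, a mitochondrial enzyme of valine breakdown, and ALDH10A9 a betaine aldehyde dehydrogenase. ALDH6B2 had 593.4 and 642.5 in shoots at 6 h, against 135.3 and 166.0 at 0.25 h, and 721.1 and 710.1 in roots at 6 h, against 459.6 and 439.9 at 0.25 h. ALDH10A9 had 439.1 and 483.2 in shoots at 6 h, against 163.4 and 160.6 at 0.25 h.

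These genes changed by unlike amounts. In shoots at 6 h the log2 change was 2.03 for ALDH6B2, 2.32 for AT4G14230, 3.17 for AT3G47160 and 5.51 for AT4G30650, against 5.27 for AT1G56300. AT4G30650 had 897.0 and 995.1 in shoots at 6 h and 492.4 and 568.3 at 12 h, against 21.4 and 16.6 at 0.25 h. In roots it was highest at 3 h, with 220.1 and 260.4, when AT1G56300 had 95.1 and 105.4. In roots at 6 h the log2 change of all 5 lay between 0.48 and 1.19, against 2.28 for AT1G56300.

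**Figure D5:**
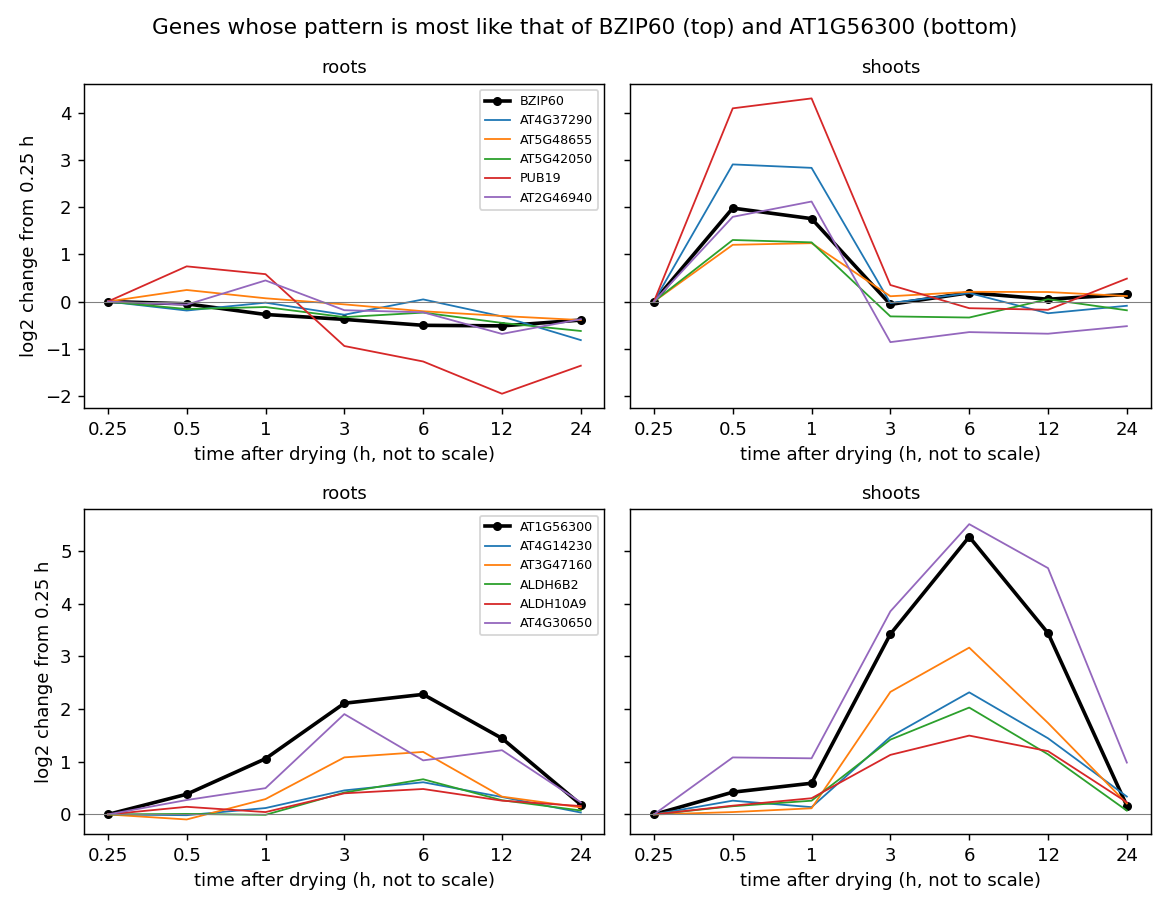
Log2 change from 0.25 h of BZIP60 with the 5 genes most like it (top) and of AT1G56300 with the 5 most like it (bottom), in roots (left) and shoots (right). In shoots the upper 6 genes are high at 0.5 h and 1 h and the lower 6 at 3, 6 and 12 h.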

How the data were processed

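The labels gave the tissue, time and replicate of each of the 28 ATH1 arrays. The deposited values are signal intensities on a linear scale, made with MAS5 per the submitters' processing notes, and no detection calls were used. The mean with 2% trimmed at each end was 100.01 on every array. From the deposited intensities log2(signal + 1.93) was computed, the pseudocount being the 10th percentile of all values. The 64 control probe sets were left out. Probe sets above the 30th percentile of both arrays of at least 1 group were kept, which left 18190 and removed 4556. A mean per group was fitted with limma 3.58.1 (R 4.3.3), whose variance prior followed the trend with signal, and 14 degrees of freedom were left. Tests were two-sided, with Benjamini-Hochberg adjustment at 0.05 within each contrast over all probe sets kept. The fit was tested on simulated data.

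Gene names came from the platform annotation, where 13513 probe sets have 1 gene, 503 have several and 8730 have none. TAIR10.1 names were found for 13436 of the first. Of several probe sets for a gene the brightest was taken. Genes were named by rule: BZIP60 and AT1G56300, the 5 genes most like each, up to 3 called members each way per list and contrast, and the listed ER sensors and chaperones where measured. For shoots at 3 h the rest of the called list members, and genes described as not called, were chosen after their values were seen. The 2 genes, the lists and the alternatives were chosen with earlier results of these data known. Alternatives changed the pseudocount, filter, scaling, variance prior, array weights, replicate block, arrays in the fit, reference time and grouping of 4 shoot arrays, and left out each array in turn, in which case the remaining array of that group takes its spread from the rest.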

Additional observations from a re-analysis of the deposited data

Results flagged for a closer look

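At 3 times every root array of BZIP60 lay on 1 side of its 0.25 h mean and every shoot array on the other. The log2 change in roots minus that in shoots was -2.03 at 1 h, -0.69 at 6 h and -0.54 at 24 h. At each of these times both root arrays lay below the root mean of 0.25 h and both shoot arrays lay above the shoot mean of 0.25 h. The shoot changes at 6 h and 24 h were small, at 0.19 and 0.15 with an SE of 0.14. The mean changes also had opposite signs at 0.5 h and 12 h, but there not every array was on its group's side. The difference was not tested, because BZIP60 was chosen by its shoot changes. At 1 h the 2 shoot arrays are among the 4 that matched arrays of the other time.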

How the results depend on the processing

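Leaving out 1 array at a time gave log2 changes of 0.95 to 1.17 for AT1G56300 in roots at 1 h, -0.11 to 0.018 for BZIP60 in roots at 0.5 h, -0.57 to -0.44 at 6 h, -0.58 to -0.45 at 12 h, and F of 3.38 to 5.65 for BZIP60 in roots. Of the 14 other genes of the unfolded protein response list it gave 0 to 1 called in roots at 1 h and at 6 h, 1 to 2 in roots at 12 h, 0 to 2 in shoots at 0.5 h, 1 to 2 at 1 h, 4 to 8 at 3 h, 1 to 4 at 6 h, 1 to 5 at 12 h and 0 to 2 at 24 h. With the average of 0.25 h and 24 h groups as reference, BZIP60 in roots had log2 changes of 0.15, -0.31 and -0.32 at 0.5, 6 and 12 h and in shoots 1.91 at 0.5 h, and the list had 1 called in roots at 0.5 h, 4 at 1 h, 0 at 6 h, and 4 in shoots at 0.5 h and at 1 h. A larger pseudocount gave 1.86 for BZIP60 in shoots at 0.5 h and 4.60 for AT1G56300 in shoots at 6 h. Quantile normalization gave 1.85 for BZIP60 in shoots at 0.5 h, and 2 list genes called in roots at 12 h, 1 in shoots at 1 h and 0 in shoots at 24 h. With the 4 early shoot arrays as 1 group BZIP60 was at 1.87 and the list had 3 called in shoots at 0.5 h. In shoots at 1 h 1 list gene was called with array weights, without the trend, without the filter, with the replicate block and with the shoot arrays alone, against 2 as reported. Array weights gave 1 in roots at 0.5 h, no trend 0 in roots at 6 h, and the shoot arrays alone 2 at 12 h and 0 at 24 h. The shares of all probe sets called under these settings are not given, so the counts show how the calls depend on the processing and are no result about the list. The causes were not tested. The replicate numbers did not pair the arrays: deviations of same-numbered arrays correlated at -0.23 to 0.16 over 21 pairs of root groups and at -0.58 to 0.13 over 21 pairs of shoot groups. AT1G56300 in roots kept its direction in every alternative, and its calls at 3, 6 and 12 h were not lost in any.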
